A study of Caenorhabditis elegans with 2 samples.

Results

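Insulin signalling in Caenorhabditis elegans runs from the receptor DAF-2 to the FOXO transcription factor DAF-16, and the binding of the T-box transcription factor TBX-2 was described at the 8 genes that encode this core: daf-2, age-1, daf-18, pdk-1, akt-1, akt-2, sgk-1 and daf-16. They are 8 of 19973 protein-coding genes of the nematode genome (WBcel235, the assembly also called ce11). Chromatin immunoprecipitation followed by sequencing (ChIP-seq) had been performed on whole hermaphrodite larvae of the first stage (L1), harvested 6 h after synchronization by bleaching and starvation. Both samples were biological replicates of 1 group, the strain OP159 (unc-119(ed3) III; wgIs159), in which an integrated transgene gives TBX-2 with GFP and FLAG at its C terminus, and an antibody to GFP was used. The labels do not say which cells express the transgene or whether the larvae were fed during the 6 h. Whole animals were used, so the cells in which a site was occupied are not known. With 1 group there was no second condition to compare and no test between conditions.

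A binding region was assigned to a gene when its summit, the single strongest base, lay in the gene or within 5 kb of one of its annotated transcript starts. The authors deposited 30000 regions for each replicate and 30000 for the pooled replicates, weak ones included. They also deposited a list of 4384 peaks thresholded by the irreproducible discovery rate (IDR), a measure of how alike regions rank in replicates. The IDR list held the 4384 strongest pooled regions. The strength of a region is the authors' own signal value, whose scale they do not give, and its rank counts from 1 at the strongest region of a list. These lists carry no read counts, so the depth of each replicate is unknown and no interval could be put on a signal.

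Insulin-like peptides bind DAF-2, which activates the phosphatidylinositol 3-kinase AGE-1. The lipid made by AGE-1 recruits the kinases PDK-1, AKT-1 and AKT-2, while the phosphatase DAF-18 removes that lipid. AKT phosphorylation keeps DAF-16 out of the nucleus, and low signalling lets DAF-16 enter it and turn on genes for stress resistance, dauer formation and long life. In starved L1 larvae the pathway is known for its role in developmental arrest and in the recovery from it. TBX-2 itself is known for its role in making pharyngeal muscle.

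TBX-2 IDR peaks lay at 5 of the 8 genes: daf-16 had 8, daf-2 and pdk-1 had 2 each, and daf-18 and akt-2 had 1 each, which makes 14 of the 4384 peaks. No IDR peak was assigned to age-1, akt-1 or sgk-1. Among all protein-coding genes, 36.1% had an IDR summit by the same rule. An IDR summit in a promoter, here the stretch from 1000 bp before a protein-coding start to 200 bp after it, was found at 3 of the 8 genes (daf-18, akt-2 and daf-16), against 15.6% of all genes. All 8 genes had at least 1 pooled region, as did 67.1% of all genes, and the number ran from 1 at age-1 to 31 at daf-16. The genes differ in size, so the counts were also set against the length searched. Among genes searched over at least as long a stretch, the share with an IDR summit was 36.1% for akt-2. For the other genes of the 8 it ran from 47.4% (akt-1) to 70.1% (daf-16). The 14 peaks came to 0.907 per 10 kb over the 8 genes, against 0.470 over all genes, and without daf-16 the value was 0.492.

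The sequences around the 6 IDR summits outside daf-16 are printed here, because they are the bound sites at the receptor, the phosphatase and the kinases. After them comes the strongest pooled region of each gene without an IDR peak, as the weaker counterpart. Each is 101 bases with the summit in the middle, on the plus strand of WBcel235 (NCBI RefSeq), and capitals mark matches to the 6 motif words given further on.
daf-2 IDR peak at chrIII:3036205-3036305: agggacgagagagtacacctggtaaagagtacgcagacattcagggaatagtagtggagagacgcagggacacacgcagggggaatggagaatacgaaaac
daf-2 IDR peak at chrIII:3037425-3037525: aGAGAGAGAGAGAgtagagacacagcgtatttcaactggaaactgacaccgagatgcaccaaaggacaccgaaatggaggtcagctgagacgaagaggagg
daf-18 IDR peak at chrIV:425724-425824: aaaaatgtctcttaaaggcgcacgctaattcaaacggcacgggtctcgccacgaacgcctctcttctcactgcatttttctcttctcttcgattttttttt
pdk-1 IDR peak at chrX:1319888-1319988: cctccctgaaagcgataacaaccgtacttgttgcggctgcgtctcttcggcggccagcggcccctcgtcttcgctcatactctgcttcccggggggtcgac
pdk-1 IDR peak at chrX:1323130-1323230: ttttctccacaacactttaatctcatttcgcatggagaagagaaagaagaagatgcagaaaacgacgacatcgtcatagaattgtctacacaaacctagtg
akt-2 IDR peak at chrX:14146903-14147003: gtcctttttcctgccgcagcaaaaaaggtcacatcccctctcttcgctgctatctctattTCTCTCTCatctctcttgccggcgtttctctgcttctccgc
age-1 strongest pooled region at chrII:11527039-11527139: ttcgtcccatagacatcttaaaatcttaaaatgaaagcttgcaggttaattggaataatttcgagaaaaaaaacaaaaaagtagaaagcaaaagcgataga
akt-1 strongest pooled region at chrV:10246545-10246645: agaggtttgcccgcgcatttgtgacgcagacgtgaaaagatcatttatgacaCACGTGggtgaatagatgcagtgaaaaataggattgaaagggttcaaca
sgk-1 strongest pooled region at chrX:16263451-16263551: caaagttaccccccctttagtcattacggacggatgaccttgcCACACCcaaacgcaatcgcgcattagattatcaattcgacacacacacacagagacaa
Only 1 of the 6 IDR windows had a match close to its summit: in akt-2 the repeat TCTCTCTC, which reads GAGAGAGA on the other strand, began 10 bp after it. In the second daf-2 window the repeat lay at the far edge, with its first base 49 bp before the summit. The windows of the other daf-2 peak, of daf-18 and of both pdk-1 peaks held none of the words.

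**Figure D1:**
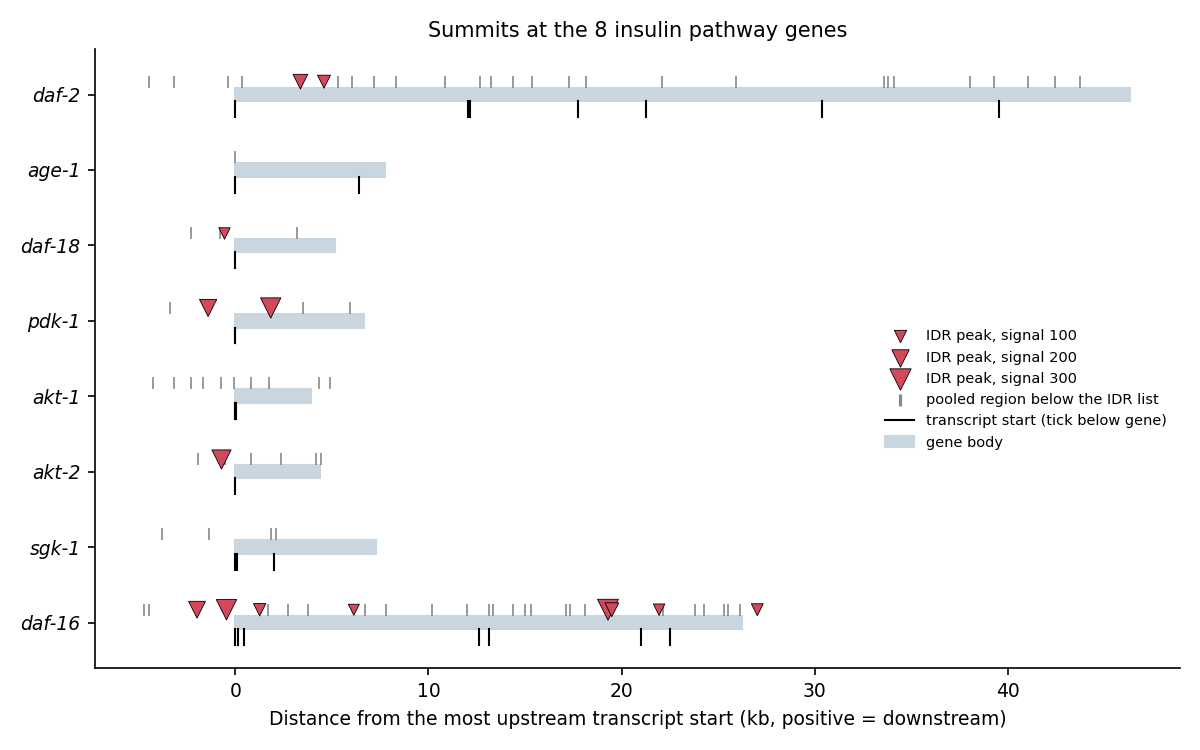
Positions of pooled region summits at the 8 genes, in kb from the most upstream transcript start of each gene, with downstream to the right. Triangles are IDR peaks sized by signal, grey ticks above the gene bodies are weaker pooled regions, and black ticks below them are transcript starts. daf-16 carries 8 triangles, and age-1, akt-1 and sgk-1 carry none.

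daf-2 encodes the insulin/IGF-1 receptor tyrosine kinase of the worm and is the longest of the 8 genes (WBGene00000898, chromosome III, 2994514 to 3040846, minus strand, 46.3 kb, 7 transcript starts). Both of its IDR peaks lay in intronic sequence of transcript c, 3371 and 4591 bp downstream of the most upstream start, and inside linc-143, a long non-coding RNA gene annotated on the same strand (3035541 to 3037543). The stronger peak had its summit at 3037475 with a pooled signal of 143 (rank 2212), and measured 56.5 in replicate 1 (rank 2163) and 89.5 in replicate 2 (rank 2197). The other, at 3036255, had a signal of 111 (rank 2985), with 31.7 in replicate 1 (rank 4310) and 78.6 in replicate 2 (rank 2616). The replicates thus ranked the first alike and the second apart. No promoter of the 7 starts held an IDR summit. The strongest pooled region in a daf-2 promoter had a signal of 18 (rank 19251), 453 bp upstream of start d, and weak regions also lay at the promoters of c (17) and g (16.5). Outside the 2 peaks, the strongest of the 27 pooled regions lay 1199 bp upstream of start a, with a signal of 49.7 (rank 6671). Of the 11 genes with a search window as long as that of daf-2 (51.3 kb, daf-2 included), 7 had 2 or more IDR peaks.

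age-1, the catalytic subunit of phosphatidylinositol 3-kinase (WBGene00000090, chromosome II, 11519328 to 11527054, minus strand), had a single pooled region. Its summit at 11527089 lay 35 bp upstream of the most upstream start, in the 113 bp that separate age-1 from mdt-8, a Mediator subunit gene on the same strand. The pooled signal was 20.1 (rank 16814), with 11.2 in replicate 1 (rank 15950) and 10.0 in replicate 2 (rank 22529). Both replicates therefore placed it in the weaker part of their lists, far from the lowest IDR signal of 76.8.

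daf-18, the phosphatase gene whose product acts against AGE-1 (WBGene00000913, chromosome IV, 420011 to 425177, minus strand), has 1 annotated start, and its promoter held 1 IDR summit. The summit at 425774 lay 597 bp upstream of the start, with a pooled signal of 86.0 (rank 3914), 36.2 in replicate 1 (rank 3740) and 51.4 in replicate 2 (rank 4174). The peak is among the weaker ones of the IDR list in both replicates. It also lay 394 bp upstream of garr-1, which is transcribed the other way from a start 990 bp from that of daf-18, so the summit was nearer to garr-1 and could belong to either promoter. Assigned only to its nearest start, daf-18 had 0 IDR peaks.

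pdk-1 encodes the kinase that phosphorylates AKT (WBGene00003965, chromosome X, 1321344 to 1327986, plus strand). Its stronger IDR peak lay in an intron, 1827 bp downstream of the start at 1323180, with a pooled signal of 271 (rank 932), 97.9 in replicate 1 (rank 1034) and 176 in replicate 2 (rank 879). The second lay in intergenic DNA 1406 bp upstream, at 1319938, with a signal of 196 (rank 1464), 79.9 in replicate 1 (rank 1370) and 113 in replicate 2 (rank 1626). Both peaks were above the median of all IDR peaks, and neither summit lay in the promoter as defined here. A promoter reaching 2000 bp upstream would include the second.

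Of the 2 AKT kinase genes, akt-2 had an IDR peak and akt-1 had none. akt-2 (WBGene00000103, chromosome X, 14147700 to 14152070, plus strand) has 1 start, and its peak lay 747 bp upstream at 14146953, with a pooled signal of 242 (rank 1110), 101 in replicate 1 (rank 971) and 145 in replicate 2 (rank 1160). No other protein-coding promoter held that summit. akt-1 (WBGene00000102, chromosome V, 10248905 to 10252845, plus strand) had 10 pooled regions, the strongest 2310 bp upstream of its first start at 10246595. Its pooled signal of 76.1 (rank 4432) fell just short of the lowest IDR signal of 76.8, and it measured 29.4 in replicate 1 (rank 4649) and 49.0 in replicate 2 (rank 4389). The akt-1 region thus missed the IDR list by 48 ranks, and its absence from the list depends on where the threshold lay. Closer to the akt-1 starts the regions were weaker, with signals of 35.9 at 1680 bp, 32.3 at 764 bp and 26.9 at 66 bp upstream.

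sgk-1 encodes a kinase related to AKT (WBGene00004789, chromosome X, 16254842 to 16262122, minus strand). The strongest of its 4 pooled regions, at 16263501, had a signal of 50.7 (rank 6547), but 9.70 in replicate 1 (rank 19919) and 41.9 in replicate 2 (rank 5130). The next, at 16265930, had a signal of 42.9 (rank 7683), with 10.0 in replicate 1 (rank 18994) and 28.0 in replicate 2 (rank 7598). Both were thus carried by replicate 2. Neither lay in a promoter of sgk-1: the first was in an intron of the upstream neighbour mua-6, an intermediate filament gene, and the second was 244 bp upstream of a mua-6 start. Near the downstream sgk-1 start the pooled signals were 17.7 and 17.3, and the promoters of the other 2 starts held no pooled region.

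daf-16, the FOXO transcription factor at the end of the pathway, had the most peaks of the 8 genes (WBGene00000912, chromosome I, 10750498 to 10776703, plus strand, 26.2 kb). Its 8 IDR peaks were matched or exceeded by 0.0401% of all protein-coding genes, which is 8 genes including daf-16: T28B11.1 (11 peaks), ppfr-1 (10), and mxl-3, scd-1, ZK470.2, tbx-2 and Y54H5A.2 (8 each). Of these, Y54H5A.2 lies close to tbx-2, the gene whose product was tagged. The search window of daf-16 was 32.5 kb long. Of the 87 genes with a window at least that long, daf-16 itself was the only one with 8 or more IDR peaks, while 70.1% had at least 1. That cut leaves out the other genes with 8 or more, whose windows ran from 10.0 kb (mxl-3) to 30.9 kb (ppfr-1). Each of them thus had more peaks for its length than daf-16. The count rests largely on weaker peaks: among the 2192 strongest IDR peaks daf-16 had 3, which 0.691% of all genes matched or exceeded. Among the pathway genes, daf-16 had the most IDR peaks per 10 kb (2.46), followed by pdk-1 with 1.72, akt-2 with 1.00, daf-18 with 0.984 and daf-2 with 0.390.

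**Figure D2:**
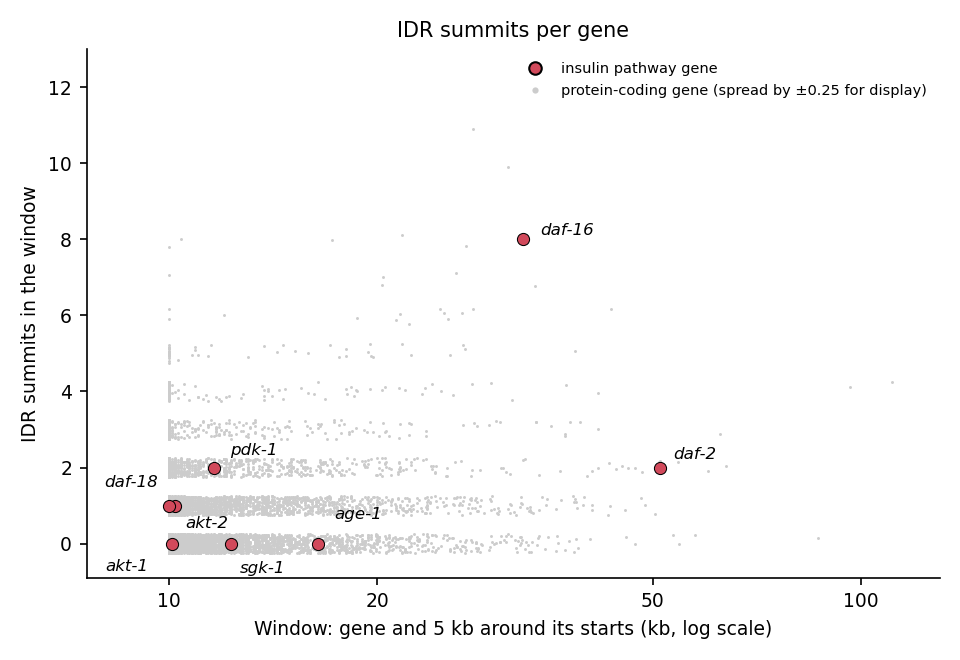
Number of IDR summits per gene against the length of its search window, in kb on a log scale, for the 8 pathway genes (red) and all protein-coding genes (grey, spread vertically for display). daf-16, with 8 summits in 32.5 kb, stands above the other 7, which have between 0 and 2.

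The daf-16 peaks fell into a group around the upstream starts, a group around the downstream starts, and a stretch without IDR peaks between them. The gene has 11 transcripts from 7 starts: h, f/i and d/k lie within 462 bp, b/c and l/m follow 12605 and 13156 bp downstream of the first, and a and e at 21010 and 22501 bp. The isoforms share most of their FOXO sequence but differ at the start of the protein, and daf-16a and the d/f forms are known for different tissue patterns. Between the fourth and the fifth IDR summit, 13153 bp were without one, and the b/c and l/m starts lie in that stretch. A pooled region at 10758286 in that stretch just missed the IDR list (rank 4427), so the length of the gap depends on the threshold.

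At the upstream end, the second strongest daf-16 peak (summit 10750043) lay 455 bp upstream of start h, 589 bp upstream of f/i and 917 bp upstream of d/k, so that 1 summit lay in the promoters of 3 starts. Its pooled signal was 274 (rank 915), with 107 in replicate 1 (rank 885) and 171 in replicate 2 (rank 909), and the replicates ranked it alike. The summit overlaps the annotated small non-coding RNA genes H36N01.1 and H36N01.4. Another peak 1980 bp upstream of h, at 10748518, had a signal of 187 (rank 1553), 68.5 in replicate 1 (rank 1692) and 124 in replicate 2 (rank 1427). In the introns downstream of d/k, the peak at 10751761 had a signal of 101 (rank 3298) and that at 10756635 a signal of 80.3 (rank 4201). Of the 13 matched peaks, these 2 were ranked least alike by the replicates. The first measured 18.4 in replicate 1 (rank 7942) and 76.1 in replicate 2 (rank 2714), although a stronger replicate 1 summit of 39.1 (rank 3383) lay 143 bp away. The second measured 46.7 in replicate 1 (rank 2778) and 36.0 in replicate 2 (rank 5935), the only one of the 13 matched peaks that was stronger in replicate 1.

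At the downstream end, the strongest of the 14 peaks had its summit at 10769788, in an intron 1720 bp upstream of start a. Its signal was 288 (rank 848), with 96.4 in replicate 1 (rank 1051) and 187 in replicate 2 (rank 777). A neighbour 200 bp further on, at 10769988, had a signal of 127 (rank 2574) and 96.5 in replicate 2 (rank 2013). Replicate 1 had no summit within 100 bp of it, and its nearest one, 157 bp away, was the match of the stronger peak. The 2 peaks may thus be counted as 1, which gives daf-16 7 peaks, a number matched or exceeded by 0.0601% of all genes when IDR summits within 250 bp are merged throughout. The peak at 10772435 lay 564 bp upstream of start e, with a signal of 87.6 (rank 3839), 33.8 in replicate 1 (rank 4035) and 54.9 in replicate 2 (rank 3881). The last, at 10777517, lay past the 3′ end of the gene, with a signal of 94.0 (rank 3580), 33.7 in replicate 1 (rank 4047) and 65.7 in replicate 2 (rank 3209).

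With the promoter defined as above, the starts of daf-16 differed in whether it held an IDR summit. Start h and its neighbours f/i and d/k shared a strong IDR summit, e had a weak one, and a, b/c and l/m had none. This depends on the width: with a promoter of 500 bp upstream to 100 bp downstream only h held a summit, and with 2000 bp upstream start a also held 2, the strongest daf-16 peak among them. At either width b/c and l/m held none. In the promoter of b/c the strongest pooled region had a signal of 27.4 (rank 11808), with no replicate 1 summit within 100 bp and 14.0 in replicate 2 (rank 15465). In that of l/m it had a signal of 39.7 (rank 8197), with 23.1 in replicate 1 (rank 6099) and 10.1 in replicate 2 (rank 22248). In the promoter of a there was no pooled region, and the strongest replicate values were 8.92 in replicate 1 (rank 22446) and 18.4 in replicate 2 (rank 11478). The daf-16 region that just missed the IDR list, at 10758286, had a signal of 76.1 (rank 4427). It measured 28.7 in replicate 1 (rank 4773) and 46.9 in replicate 2 (rank 4575). The weakest daf-16 peak inside the list had 80.3.

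**Figure D3:**
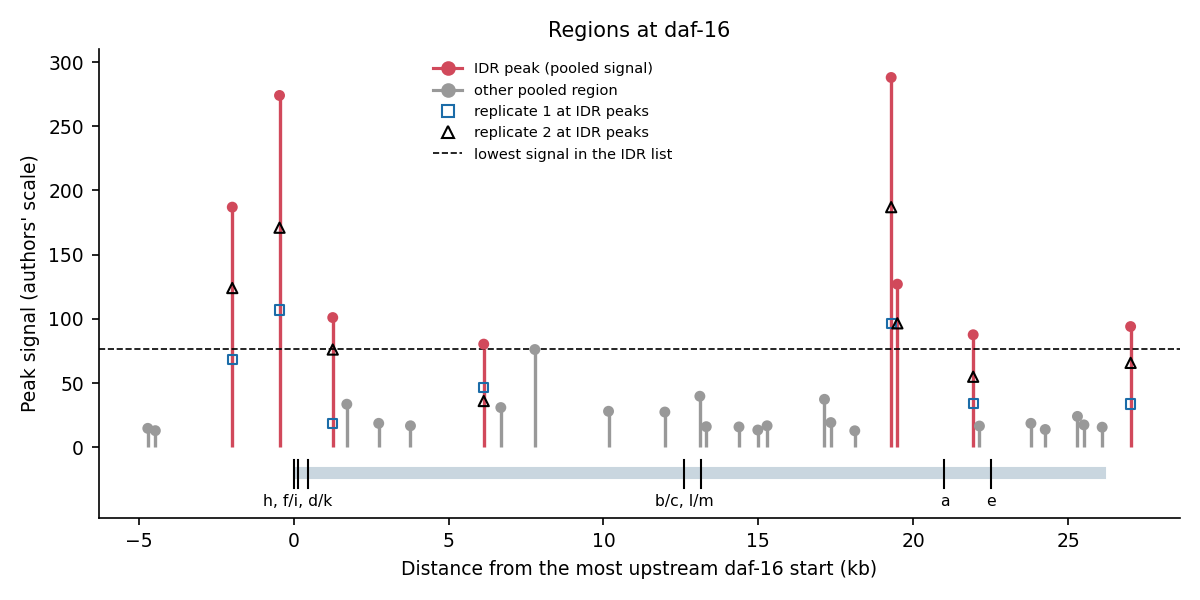
Signal of pooled regions at daf-16 against distance from its most upstream start in kb. Red stems are IDR peaks, grey stems weaker pooled regions, squares and triangles the signals of replicates 1 and 2 at IDR peaks, and the dashed line the lowest IDR signal (76.8). The highest stems, 288 and 274, stand near the downstream and the upstream starts, and no IDR peak stands at b/c or l/m.

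Across the 8 genes, 26 distinct starts were annotated, 25 of them of protein-coding transcripts. Of these, 6 had an IDR summit in the promoter: the starts of daf-18 and akt-2 and the daf-16 starts h, f/i, d/k and e. The share among all 29314 protein-coding starts was 15.0%. With the narrower and the wider promoter the number of starts was 1 and 9. Because 3 daf-16 starts share a summit, 4 of the 14 summits accounted for the 6. Set against protein-coding genes only, 8 of the 14 summits lay in introns, 6 outside such genes and 0 in their exons. Non-coding genes were left out of this count. The same split was not made over all IDR peaks, so it cannot be called particular to the 14. The daf-16 summit at 10750043, among the 6, lay in H36N01.1 and H36N01.4, and both daf-2 summits lay in linc-143. The nearest protein-coding start belonged to the pathway gene for 13 of the 14, with daf-18 the exception.

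In strength the 14 peaks lay within the range of the whole IDR list, and none was near its top. Their median signal was 135, with a range of 80.3 to 288, against a median of 145 and a range of 76.8 to 1894 for all IDR peaks. The replicates were compared at 13 of the 14 peaks, those with a summit within 100 bp in both lists. Replicate 2 was the stronger at 12 of the 13, against 95.5% of the 4260 matched IDR peaks. The median ratio of replicate 2 to replicate 1 was 1.62, with a range of 0.770 to 4.14, against 1.61 and quartiles of 1.36 and 1.94 for all. Among the strongest 4384 regions of each replicate, 12 of the 14 peaks were found in replicate 1, 13 in replicate 2 and 11 in both, and for all IDR peaks the share found in both was 80.2%. Taking only each replicate's own strongest 4384 regions gave the same 5 genes in both: daf-16 with 7, daf-2 and pdk-1 with 2 each, and daf-18 and akt-2 with 1 each. Both replicates went into the IDR list, so this likeness is no independent check of it.

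**Figure D4:**
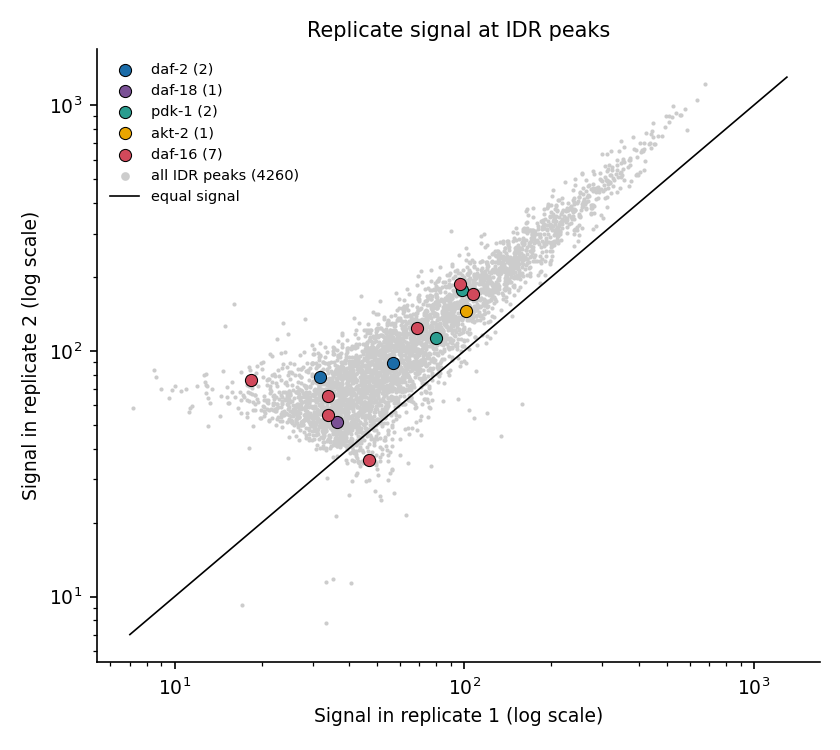
Signal in replicate 2 against signal in replicate 1, both on log scales, at the 13 matched peaks of the pathway genes (coloured by gene) and at 4260 matched IDR peaks (grey); the line marks equal signal. Of the 13, 12 lie above the line within the grey cloud, and 1 daf-16 peak lies below it.

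Sequence words were searched on both strands in the 101 bp around each summit. The T-box site GGTGTGA was found at 0 of the 14 peaks and at 0.958% of all IDR peaks, and its core GGTGTG at 0 of 14 and 5.20%, where every match to the first also matches the second. The core did occur in the weaker sgk-1 region printed above. The DAF-16 binding element GTAAACA was found at 1 peak, against 2.51% of all: it was the daf-16 promoter summit at 10750043, where the word began 28 bp after the summit. The DAF-16-associated element CTTATCA was found at 0 of 14 and 1.92% of all, and the GAGA repeat GAGAGAGA at 2 (daf-2 and akt-2) and 6.96%. The E-box CACGTG was found at 1, the daf-16 peak at 10751761, and at 6.52% of all. With 14 windows, counts this small say little about any word. The base composition was near that of the list, with a median GC content of 46.0%, against 46.5% for all IDR peaks.

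The other genes of insulin signalling were described from 5 lists, 70 genes in all. Of these, 36 (51.4%) had an IDR summit in the gene or within 5 kb of a start, and 23 (32.9%) had one in a promoter, against 36.1% and 15.6% of all protein-coding genes. The difference was not tested, since the lists were chosen with results of these data known. By list, 18.2% of the receptor ligands, 83.3% of the adaptors and phosphatases and 77.8% of the TOR genes had an IDR summit. For the regulators and partners of DAF-16 it was 58.3%, and for genes known to respond to DAF-16 it was 40.0%.

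Among the insulin-like peptides that act on DAF-2, 2 of 11 had an IDR summit, ins-39 and ins-7, and only that of ins-39 lay in a promoter. It was stronger than any peak at the 8 core genes: 636 bp upstream of the start, with a signal of 690 (rank 134), 250 in replicate 1 (rank 159) and 439 in replicate 2 (rank 128). The agonist genes daf-28, ins-4 and ins-6 had none. The adaptors and phosphatases had summits at 5 of 6 genes, 3 of them in promoters: paa-1, the scaffold subunit of protein phosphatase 2A (signal 290, a promoter shared with F48E8.8), pptr-2, a regulatory subunit of the same enzyme (285), and the adaptor gene shc-1 (104). The paralogue pptr-1, whose product dephosphorylates AKT-1, and the AGE-1 adaptor aap-1 had summits outside promoters.

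The TOR genes are those of the TOR kinase complexes, which sense nutrients beside the insulin pathway, and of partners outside the complexes. These partners, rsks-1, raga-1, ragc-1 and rheb-1, each had a summit. Of the subunit genes, let-363, daf-15 and rict-1 had a summit, and mlst-8 and sinh-1 had none. In all, 7 of 9 TOR genes had summits and 4 had promoter summits. The strongest were at rict-1, the Rictor subunit of TOR complex 2 (signal 370, shared with gfm-1), at rheb-1, a GTPase that activates TOR (362, shared with spk-1), and at daf-15, the Raptor subunit of TOR complex 1 (166). Among the regulators and partners of DAF-16, 14 of 24 had a summit and 11 had one in a promoter. The strongest were at the 14-3-3 genes ftt-2 (signal 575, 195 in replicate 1 and 337 in replicate 2) and par-5 (219, shared with M117.3), whose products bind phosphorylated DAF-16, and at the sirtuin gene sir-2.1 (202). Among genes known to respond to DAF-16, 8 of 20 had a summit and 4 had one in a promoter. These were the small heat shock protein gene sip-1 (signal 410, shared with sly-1), the glyoxylate cycle gene icl-1 (235, shared with srh-2), the heat shock gene hsp-16.2 (84.7, shared with hsp-16.41) and the linker histone gene hil-1 (83.2). The commonly used DAF-16 reporter genes sod-3 and mtl-1 had no IDR summit.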

How the data were processed

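Regions were taken from the deposited ce11 lists of the 2 replicates, of the pooled replicates and of the IDR-thresholded set. Their signal is the authors' own peak strength, and the deposited −log10 q-value had the same value, 4.01, for every IDR peak, so it did not rank them. Per the notes deposited with the samples, the authors made them from aligned reads of each replicate and of a control. Which aligner, peak caller and IDR threshold they used is not given in the sources used here. Gene models came from Ensembl release 115 (WBcel235), whose chromosome names fit the lists. Summits were assigned with Python 3.11.15, numpy 2.4.6 and pandas 2.3.3; the nearest replicate summit within 100 bp was taken as its match, and motif windows ran 50 bp to each side. The assignment was tested on simulated data. All 8 genes and all their IDR peaks are named, with the strongest pooled region of a gene without one, neighbours sharing a promoter summit, and up to 3 genes per other list by promoter signal; ins-7, pptr-1, aap-1, daf-28, ins-4, ins-6, hil-1, sod-3 and mtl-1 were added after their values were seen. Genes, lists and motifs were chosen with earlier results of these data known. Alternatives were other distances, promoters, thresholds and single replicates. No test was run, since there is 1 group.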

Additional observations from a re-analysis of the deposited data

How the results depend on the processing

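The 5 genes with an IDR peak numbered 3 with only the 2192 strongest peaks (22.7% of all genes), since daf-2 and daf-18 dropped out, and the 14 peaks numbered 6, with daf-16 keeping 3 (0.691%). The 3 genes with a promoter peak came to 1, daf-16, with a promoter of 500 bp upstream to 100 bp downstream (12.4%). The other alternatives stayed within 1.5 times the reported counts: 4 to 7 genes, 2 to 4 with a promoter peak and 13 to 17 peaks. Each replicate's own list gave 5 genes, 3 promoter genes and 13 peaks; merging summits within 250 bp, chosen after seeing the data, also gave 13. Assigning a summit only to its nearest start gave 4 genes, without daf-18. Reaching 10 kb from a start gave 7 genes (52.6% of all), with 2 peaks for age-1 and 1 for sgk-1. The 5737 strongest pooled regions, the size of the ce10 IDR list, gave 6, akt-1 included. Single-gene counts stayed within 1.5 times, and the strongest peak or its nearest start stayed the same, in 88 of 95 alternatives. Many of these could hardly change, such as the counts of 0 at age-1, akt-1 and sgk-1. The 88 is therefore no measure of how firm the other counts are. No paired analysis was possible because there is 1 group. Depth is unknown from the lists, the signal scale is not stated, and the control was not analysed here, so a missing peak means only that no region reached the list.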

Other observations

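The intergenic pdk-1 summit had a GC content of 63.4% in its 101 bp, more than 98.7% of all IDR peaks, while the intronic pdk-1 summit had 38.6%. Neighbouring IDR summits within 250 bp, like the pair upstream of daf-16 start a, made up 111 of 4378 neighbouring pairs on a chromosome (2.54%), and the smallest spacing in the IDR list was 199 bp. Of the 14 peaks, 4 lay in or within 200 bp of an annotated lincRNA or ncRNA gene, 2 at daf-2 and 2 at daf-16. The share over all IDR peaks was not computed, so this count cannot be called particular to the 14. When the search was widened to 10 kb, the strongest peak gained by age-1 had a signal of 302, and the one gained by sgk-1 had 87.3. Other genes lay in between. The age-1 gain, at 11534997, was beyond the whole of mdt-8 (11527168 to 11533816). The sgk-1 gain, at 16271380, was beyond mua-6 and inside the antisense RNA gene W10G6.5 (16265943 to 16271827).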
